A study of Mus musculus with 24 samples.

Results

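The 10 genes described here encode the proteins that license DNA replication origins: Mcm2, Mcm3, Mcm4, Mcm5, Mcm6, Mcm7, Mcm10, Cdc6, Cdt1 and Gmnn. They are a list of symbols set by known role, drawn up with earlier results of these data known, and all 10 were found among the 55471 genes of the mouse annotation (GRCm38). The study followed N6-methyladenosine (m6A), a methyl mark on adenosine in RNA, and RNA levels through the maternal-to-zygotic transition, when the embryo replaces the RNA stored in the egg with its own. Metaphase II (MII) oocytes, late 1-cell (L1C) embryos and late 2-cell (L2C) embryos were each profiled in 3 input libraries, which hold RNA as extracted, and 3 IP libraries, which hold RNA captured by an m6A antibody. A second experiment compared L2C embryos after knockdown (KD) of Ythdc1, a nuclear m6A reader, with control embryos (NC), with 3 libraries labelled for each. Oocytes and embryos were wild-type B6D2F1 (C57BL/6J x DBA/2N) material from superovulated 8-week-old females, the cumulus cells around the MII oocytes were removed, and embryos came from matings with B6D2F1 males. KD zygotes received Cas13d mRNA with 3 crRNAs against Ythdc1 and NC zygotes received Cas13d mRNA alone, so the presence of any crRNA and the loss of Ythdc1 cannot be told apart in that comparison. The labels do not say that replicates came from separate pools of embryos, and p-values here measure the spread between these libraries only.

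Licensing is the loading of the replicative helicase onto DNA in G1, before S phase. The origin recognition complex and Cdc6 sit on the origin, Cdt1 brings the hexamer of Mcm2 to Mcm7, and a double hexamer closes around DNA. Geminin, the product of Gmnn, binds Cdt1 and prevents a second loading in the same cycle, and Mcm10 acts later, when the helicase is activated. An early mouse embryo must license and replicate its genome in the first cell cycles, at first with maternal products.

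The total estimated count per SLIM-seq library, the low-input m6A method used here, lay between 11107421 and 39739950, and the IP library of L2C replicate 2 was the shallowest. Every member had at least 314 counts in every one of these 18 libraries. Oocyte markers (10 of 10 above 3 counts) summed to 13622 to 15439 counts per 1000000 (CPM) in MII inputs, 7187 to 7767 in L1C and 779 to 838 in L2C, while 9 markers of 2-cell embryos summed to 35.5 to 43.4, 132 to 171 and 414 to 550 CPM. The 8 cumulus and granulosa markers summed to 42.2 to 53.1 CPM in MII, 31.4 to 36.4 in L1C and 2.21 to 3.97 in L2C, with Ptx3 at 0 in every input. In these pooled samples, fewer cells of a type and less RNA per cell cannot be told apart. CPM are relative to all RNA counted in a library, so a higher value is a larger share and not a larger amount per embryo.

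RefSeq promoters of GRCm38.p6, from 250 bases before to 50 bases after the start of transcription, were at hand for 8 of the 10 members, with Mcm4 and Gmnn not matched. Shown are the 3 of these that rose in RNA between MII and L2C (Mcm3, Mcm6 and Cdc6) and the 3 that fell the most (Mcm10, Mcm2 and Mcm5), to set the letters of both directions side by side. They were searched on both strands for 4 words of the E2F binding site, TTTCCCGC, TTTCGCGC, TTTGCCGC and TTTGGCGC, since E2F factors control many S-phase genes. Of 32851 mouse promoters of this length, 2.26% held such a word, and 6 of the 8 matched members did. Capitals mark the words, and each sequence is written 5′ to 3′ on the strand of the gene.
Mcm3, chr1:20820263-20820562, minus strand, 2 words: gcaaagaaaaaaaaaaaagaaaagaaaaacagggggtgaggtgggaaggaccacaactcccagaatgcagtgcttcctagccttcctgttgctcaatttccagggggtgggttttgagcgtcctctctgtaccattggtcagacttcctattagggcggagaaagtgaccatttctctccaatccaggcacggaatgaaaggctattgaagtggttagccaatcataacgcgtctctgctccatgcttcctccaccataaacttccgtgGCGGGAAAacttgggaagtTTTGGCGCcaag
Mcm6, chr1:128359656-128359955, minus strand, 3 words: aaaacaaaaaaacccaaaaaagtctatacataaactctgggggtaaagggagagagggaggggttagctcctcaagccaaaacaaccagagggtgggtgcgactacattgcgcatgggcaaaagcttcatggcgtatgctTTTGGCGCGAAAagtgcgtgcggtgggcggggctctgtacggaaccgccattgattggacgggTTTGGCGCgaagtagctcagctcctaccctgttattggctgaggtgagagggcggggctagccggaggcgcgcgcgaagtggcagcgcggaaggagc
Cdc6, chr11:98907901-98908200, plus strand, 1 word: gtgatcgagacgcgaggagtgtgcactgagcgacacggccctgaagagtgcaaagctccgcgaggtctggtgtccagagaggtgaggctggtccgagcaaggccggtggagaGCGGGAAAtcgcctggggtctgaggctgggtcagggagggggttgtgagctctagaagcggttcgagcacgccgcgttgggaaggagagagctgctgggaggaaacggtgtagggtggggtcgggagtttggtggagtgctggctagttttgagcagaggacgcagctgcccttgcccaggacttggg
Mcm2, chr6:88898731-88899030, minus strand, no word: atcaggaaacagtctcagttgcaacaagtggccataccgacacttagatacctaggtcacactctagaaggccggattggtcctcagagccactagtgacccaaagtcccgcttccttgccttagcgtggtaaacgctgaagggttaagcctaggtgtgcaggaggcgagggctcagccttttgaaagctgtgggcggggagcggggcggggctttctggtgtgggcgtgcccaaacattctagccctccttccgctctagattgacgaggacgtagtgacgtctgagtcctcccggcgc
Mcm10, chr2:5012742-5013041, minus strand, no word: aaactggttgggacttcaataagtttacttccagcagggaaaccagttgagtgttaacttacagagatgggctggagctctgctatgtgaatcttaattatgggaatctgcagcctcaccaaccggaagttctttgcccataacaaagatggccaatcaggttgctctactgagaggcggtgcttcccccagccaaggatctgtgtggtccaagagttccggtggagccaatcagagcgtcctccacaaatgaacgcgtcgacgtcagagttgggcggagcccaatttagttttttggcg
Mcm5, chr8:75109259-75109558, plus strand, 2 words: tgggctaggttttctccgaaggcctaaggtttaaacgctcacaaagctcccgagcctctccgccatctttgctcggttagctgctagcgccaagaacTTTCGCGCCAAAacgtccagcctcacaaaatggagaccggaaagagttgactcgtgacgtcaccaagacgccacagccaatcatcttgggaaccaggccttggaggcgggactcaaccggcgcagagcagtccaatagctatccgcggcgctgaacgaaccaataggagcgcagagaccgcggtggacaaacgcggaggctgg

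In Mcm3 the words began at 19 and 38 bases after the start, in Cdc6 at -138, and in Mcm6 at -110, -106 and -47, of which the first pair overlap. Those of Mcm5 began at -153 and -149 and overlap, Mcm7 held 2 in one of its promoters and 0 in the other, and Cdt1 held 1. The words did not separate the directions, since Mcm3, Mcm6 and Cdc6, which rose, held words and so did Mcm5 and Mcm7, which fell, while Mcm2 and Mcm10, which fell, held none. The window of Mcm10 ends in tttggcg, which is TTTGGCGC without its last letter, so a word cut by the window's edge would be missed there. The word CCAAT was in 6 of the 8 members and in 37.4% of all promoters. A match is a description of the letters in this window and not of a bound factor.

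The RNA level of the licensing factors followed no common course from oocyte to L2C embryo. RNA of Mcm2, Mcm4, Mcm5 and Mcm10 fell at each step, whereas RNA of Mcm3, Cdc6 and Gmnn was at its highest in L2C, at 3.07, 4.00 and 2.84 times its MII level. Changes were tested with edgeR's quasi-likelihood test over 19903 genes in the 9 inputs, and a gene was called at a Benjamini-Hochberg adjusted p under 0.05. The 3 stage comparisons share their libraries and are not independent of each other.

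**Figure D1:**
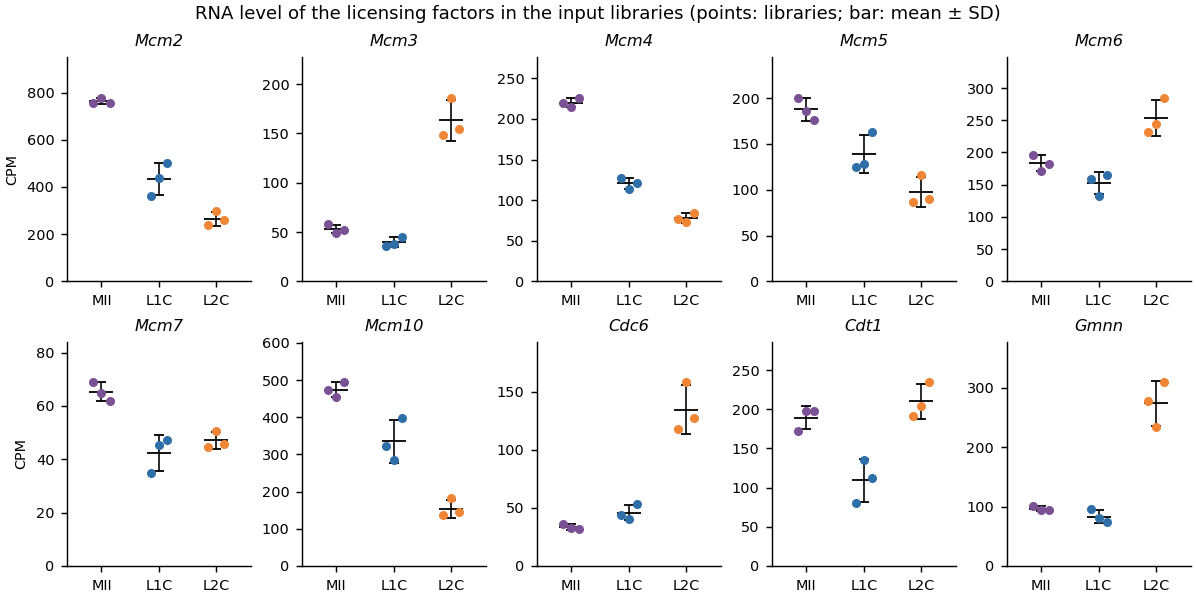
RNA level (CPM, linear axis from 0) of each member in the 9 input libraries, with 3 points per stage and the mean ± SD as a bar. Mcm2, Mcm4, Mcm5 and Mcm10 stepped down from MII to L2C, while the 3 L2C points of Mcm3, Cdc6 and Gmnn stood above all others.

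Mcm2 (chr6:88883474-88898780, minus strand), a subunit whose gate to Mcm5 opens the helicase ring, stood at 755, 779 and 758 CPM in the 3 MII inputs. In L1C it stood at 362, 439 and 500 CPM, and in L2C at 238, 298 and 258 CPM. The 3 groups did not overlap. Its level fell by 0.82 ± 0.13 on the log2 scale (SE, n = 3 per group here and below) from MII to L1C (edgeR, adjusted p = 0.000151) and by 0.71 ± 0.13 from L1C to L2C (adjusted p = 0.00019).

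Mcm4 (chr16:15623897-15637400, minus strand), a subunit of the helicase core with Mcm6 and Mcm7, stood at 219, 215 and 226 CPM in MII, at 127, 113 and 122 in L1C and at 76.8, 72.8 and 84.4 in L2C, again without overlap. It fell by 0.87 ± 0.11 on the log2 scale in the first step (edgeR, adjusted p = 1.69e-05) and by 0.63 ± 0.11 in the second (adjusted p = 0.000107). Mcm5 (chr8:75109569-75128439, plus strand), the partner of Mcm2 at the gate, ranged from 176 to 201 CPM in MII, from 125 to 163 in L1C and from 86.8 to 116 in L2C. It fell by 0.44 ± 0.14 (adjusted p = 0.0187) and then by 0.51 ± 0.14 (adjusted p = 0.00474).

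Mcm3 (chr1:20802968-20820312, minus strand), the subunit through which the hexamer contacts the origin-bound loader, also fell first but took the opposite course in the second step. It stood at 58.1, 49.4 and 51.9 CPM in MII and at 35.6, 37.7 and 45.3 in L1C, and at 148, 186 and 155 in L2C. The lowest L2C library stood above every MII and L1C library. Its level fell by 0.43 ± 0.14 from MII to L1C (edgeR, adjusted p = 0.0163) and then rose 4.13-fold from L1C to L2C (log2 difference 2.05 ± 0.14, adjusted p = 4.72e-09).

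Mcm6 (chr1:128331590-128359664, minus strand), another core subunit, stood at 196, 171 and 182 CPM in MII, 159, 133 and 165 in L1C and 232, 245 and 285 in L2C. The L2C libraries were the highest, and the MII and L1C libraries did not overlap although their difference did not pass the test (log2 difference -0.27 ± 0.13, edgeR, adjusted p = 0.0861, and 0.0305 by DESeq2). Mcm6 rose by 0.74 ± 0.13 from L1C to L2C (adjusted p = 8.00e-05). Mcm7 (chr5:138164583-138172422, minus strand) ranged from 61.8 to 68.9 CPM in MII, from 34.8 to 47.4 in L1C and from 44.8 to 50.6 in L2C. Its level fell by 0.62 ± 0.14 after MII (adjusted p = 0.00163), and its L1C and L2C libraries overlapped (0.15 ± 0.14, adjusted p = 0.323). Of the exon bases of Mcm7, 12.6% are shared with other genes, among them Cops6 and Ap4m1 on the opposite strand, the knockdown counts below were made with no strand option, and for SLIM-seq the strand setting is not given in the sources used here, so values of Mcm7 carry this uncertainty.

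The hexamer subunits, which are needed in equal numbers in the protein complex, thus separated at the RNA level. From MII to L2C, Mcm3 and Mcm6 rose and the other 4 fell, from -0.47 ± 0.14 for Mcm7 (edgeR, adjusted p = 0.0053) to -1.53 ± 0.14 for Mcm2 (adjusted p = 7.70e-08). Mcm10 (chr2:4989714-5012791, minus strand) fell the most of all members over this interval, by 1.62 ± 0.15 (adjusted p = 1.04e-07). It stood at 474, 454 and 494 CPM in MII, 322, 284 and 399 in L1C and 136, 182 and 144 in L2C, with no overlap between groups.

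Of the loading factors, Cdc6 (chr11:98907801-98923940, plus strand), the ATPase that recruits the hexamer, rose at both steps. It stood at 36.2, 32.5 and 32.1 CPM in MII, at 43.9, 40.8 and 53.2 in L1C and at 118, 158 and 128 in L2C, and the 3 groups did not overlap. It rose by 0.45 ± 0.15 (edgeR, adjusted p = 0.0175) and then by 1.55 ± 0.15 (adjusted p = 1.63e-07), and it was the only member of the 10 called higher in L1C than in MII. That first call rested on single libraries, since the adjusted p passed 0.05 without MII input replicate 2 or 3 or without L1C input replicate 3.

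Cdt1 (chr8:122568015-122573554, plus strand), the carrier of the hexamer, fell and came back. It stood at 173, 198 and 198 CPM in MII, at 79.9, 135 and 112 in L1C and at 191, 205 and 235 in L2C, with L1C below both other stages in every library. It fell by 0.79 ± 0.17 on the log2 scale (edgeR, adjusted p = 0.00106) and rose by 0.95 ± 0.17 (adjusted p = 0.000104), and L2C did not differ from MII beyond the test (0.15 ± 0.16, adjusted p = 0.397). These estimated counts were assigned over whole gene spans with their introns, and the span of Cdt1 lies within that of Gm20388, a readthrough model of 4434882 bases on the same strand whose mean input count was 9444 for MII, 43978 for L1C and 57029.6 for L2C embryos. The SLIM-seq values of Cdt1 are therefore uncertain.

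Gmnn (chr13:24751845-24761923, minus strand), the inhibitor, stood at 101, 94.5 and 93.9 CPM in MII, at 95.6, 80.0 and 73.9 in L1C and at 278, 234 and 310 in L2C. Only the L2C group stood apart. The level did not differ between MII and L1C beyond the test (-0.21 ± 0.14, edgeR, adjusted p = 0.191) and rose 3.29-fold from L1C to L2C (1.72 ± 0.14, adjusted p = 2.73e-08). The counts of Gmnn over those of Cdt1 were 0.586, 0.479 and 0.475 in the MII inputs, 1.20, 0.591 and 0.66 in L1C and 1.45, 1.14 and 1.32 in L2C. The mean log2 ratio was higher in L2C than in MII by 1.35 in a two-sided exact permutation test with p = 0.1, the smallest that 3 against 3 allows, and 0.2 after adjustment over 4 such comparisons. These ratios carry the uncertainty of Cdt1 given above, and exon counts of L2C control embryos, given below, gave much higher ratios.

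Counted over all 10, 1 rose and 7 fell from MII to L1C, where 56.2% of all genes tested were called, 31.9% higher and 24.3% lower. From L1C to L2C 5 rose and 4 fell, against 82.9% called in all (44.1% higher and 38.8% lower), and over both steps together 4 rose and 5 fell, against 84.6% (47.5% and 37.1%). The shares called in the later steps were thus near the background. The median log2 difference of the 10 was -0.47, 0.44 and -0.16 in these comparisons, beside 0.16, 0.17 and 0.40 for all genes tested. Leaving out MII input replicate 1 or L1C input replicate 1 or 2 ended the calls of Mcm3 and Mcm5 in the first step.

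For each member, the protein-coding gene with the most similar course over the 9 inputs was sought among 8258 genes of at least 10 CPM, by the root mean square difference of centred log2 CPM. The nearest were Ddx28 for Mcm2 (0.0458), Riox2 for Gmnn (0.0626), AU022252 for Mcm3 (0.0692), Kif4 for Mcm6 (0.0752) and Mfn2 for Cdc6 (0.112), where the median over all genes searched lay between 0.92 and 1.31. The others were Fyn for Mcm5, Snx12 for Mcm4, Fhod3 for Mcm10, Slc25a12 for Mcm7 and Pom121 for Cdt1, between 0.0605 and 0.0804. These points share the scaling of 9 libraries.

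RNA of the licensing factors was mostly lower in the m6A IP than in the input, with Gmnn as the exception. Gmnn RNA was higher in the IP than in the input at every stage, and the other 9 members were lower at L1C and L2C, as were 8 of them at MII. IP libraries were compared with the inputs of their stage over 21950 genes in the 18 libraries, and the values below are on a scale set over all 18. This ratio depends on what else each library holds and gives no fraction of methylated molecules.

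**Figure D2:**
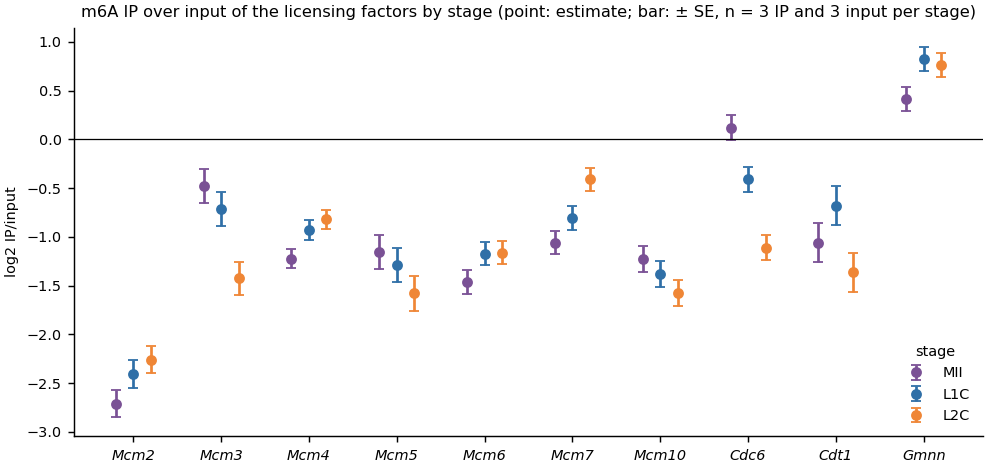
Log2 IP/input of each member at MII, L1C and L2C, with the edgeR estimate as a point and ± SE as a bar (3 IP and 3 input libraries per stage). Gmnn lay above 0 at all 3 stages, Mcm2 lay lowest at each, and Cdc6 moved from near 0 at MII to -1.11 at L2C.

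Gmnn stood at 124, 113 and 112 CPM in the MII inputs and at 158, 144 and 163 in the MII IP libraries. At L2C it stood at 269, 222 and 300 CPM in the inputs and at 438, 478 and 428 in the IP. Input and IP libraries did not overlap at either stage. In MII the log2 IP/input reached 0.41 ± 0.12 (edgeR, adjusted p = 0.0117). In L1C embryos it was 0.83 ± 0.12 (adjusted p = 3.49e-05), with IP libraries of 158.5 to 181 CPM above inputs of 83.0 to 109.5 CPM, and in L2C embryos 0.77 ± 0.12 (adjusted p = 5.93e-05).

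Mcm2 was the farthest below its input at each stage. It stood at 924, 934 and 901 CPM in the MII inputs against 131, 163 and 128 in the IP, and at 230, 282 and 250 against 60.1, 43.8 and 55.0 at L2C. The groups were far apart. Its log2 IP/input was -2.71 ± 0.14 in the oocyte, -2.41 ± 0.14 in L1C and -2.26 ± 0.14 in L2C. The other 5 hexamer subunits lay between -1.46 (Mcm6) and -0.48 (Mcm3) at MII and between -1.58 (Mcm5) and -0.41 (Mcm7) at L2C. Mcm10 lay at -1.23, -1.38 and -1.57 at the 3 stages, and Cdt1, with the uncertainty given above, at -1.06, -0.68 and -1.36.

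Counted together, 1 member was higher and 8 were lower in the IP at MII, where 17.7% of all genes tested were called higher and 21.0% lower (38.6% in either direction). At L1C and at L2C 1 was higher and 9 were lower, against 15.8% higher and 18.2% lower (33.9% in all) and 22.0% and 22.0% (44.0% in all). The share of members called lower was thus well above that of all genes. Their median log2 IP/input was -1.11, -0.87 and -1.26, beside 0.00, 0.07 and 0.09 over all genes. Scaling by library size alone moved the median of all genes to 0.20, 0.37 and 0.34 and ended the calls of Mcm3 at MII, of Mcm3, Cdc6 and Cdt1 at L1C and of Mcm7 at L2C. It also brought Cdc6 at MII above the threshold as higher (0.35, adjusted p = 0.0328). Single libraries decided the calls of Mcm3 at MII (lost without MII input replicate 1 or 3 or MII IP replicate 1 or 3, and also by DESeq2, at -0.41 with adjusted p = 0.051, and with the replicate number as a block, adjusted p = 0.0618), of Cdc6 at L1C (without L1C input or IP replicate 3), of Cdt1 at L1C (without L1C input replicate 2 or L1C IP replicate 1 or 2) and of Mcm7 at L2C (without L2C IP replicate 3). Without 1 of these libraries the adjusted p lay between 0.0548 and 0.176.

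Whether the IP/input itself differed between stages was tested as an interaction in the same fit. Cdc6 moved the most. It stood at 44.3, 39.0 and 38.2 CPM in the MII inputs against 45.8, 46.4 and 39.7 in the IP, which overlapped, and at 114, 150 and 124 against 59.4, 60.2 and 60.0 at L2C, which did not. Each IP library over the mean of its inputs gave 0.18, 0.20 and -0.03 in the oocyte, then -0.28, -0.40 and -0.56 in L1C embryos and -1.12, -1.10 and -1.11 in L2C embryos. On this scale of 18 libraries the mean input level was 40.5 ± 3.33 CPM at MII and 129 ± 18.7 at L2C, and the mean IP level 44.0 ± 3.69 and 59.9 ± 0.42 (SD, n = 3). Its log2 IP/input fell by 1.23 ± 0.18 from MII to L2C (edgeR, adjusted p = 8.01e-05), of which 0.70 ± 0.18 came after L1C (adjusted p = 0.0192).

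Mcm3 went the same way and Mcm7 the opposite way. The IP/input of Mcm3 gave -0.51, -0.16 and -0.85 over the 3 MII IP libraries and -1.23, -1.80 and -1.33 at L2C, a fall of 0.95 ± 0.24 (edgeR, adjusted p = 0.00803). That of Mcm7 gave -1.01, -0.97 and -1.21 at MII and -0.37, -0.33 and -0.54 at L2C, a rise of 0.65 ± 0.17 (adjusted p = 0.0109), whose call was lost without a filter on low counts (adjusted p = 0.0736) and with only the stages compared (adjusted p = 0.0563). Neither pair of stages overlapped in these values. They divide each IP library by the mean of its inputs and so leave out the spread of the inputs. Between MII and L1C, 0 of the 10 members changed by edgeR and 0 by DESeq2, with 2, Cdc6 and Gmnn, at an unadjusted p under 0.05, and 7.33% of all genes were called. Between L1C and L2C 1 changed by edgeR, against 9.47% (5.0% higher and 4.47% lower), and 3 by DESeq2 or without a filter on low counts, with Mcm3 (adjusted p = 0.016 and 0.0194) and Cdt1 (0.0483 and 0.0169) added, and between MII and L2C 1 was higher and 2 were lower, against 20.3% (11.1% and 9.21%). At an unadjusted p under 0.05 the counts were 2, 4 and 5, against 20.1%, 24.1% and 32.3% of all genes. The call of Cdc6 after L1C was lost without L1C IP replicate 1 (adjusted p = 0.0559) or L2C input replicate 2 (adjusted p = 0.0537) and with the replicate number as a block (adjusted p = 0.059), and without L2C IP replicate 2 the count over both steps was 5, with Mcm2 and Mcm4 added. Mcm3 was called after L1C as well without MII IP replicate 2 or 3 (count 2).

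The word GGACT, the most common form of the m6A consensus, was counted in 1 mRNA per gene. Of 21901 mouse mRNAs, 86.7% held the word, with a median of 1.02 per kb. Gmnn held 1, in its 5′ UTR (0.887 per kb), and Mcm6 and Mcm2 held 1 and 2. Cdc6 and Mcm3 held 8 each, at 3.13 and 2.64 per kb, denser than 97.6% and 95.2% of all mRNAs. Examples from the members with the highest and lowest log2 IP/input and the densest words follow, on the gene's strand, with the word in capitals (GRCm38).
Gmnn, exon 1, 5′ UTR, chr13:24761652-24761680, minus strand: acccgagtctggGGACTtgaaagggaccc
Cdc6, exon 4, coding, chr11:98910719-98910747, plus strand: ctggcgctcctgGGACTggaaaaactgcc
Cdc6, exon 12, 3′ UTR, chr11:98921604-98921632, plus strand: acgagtatatacGGACTtgtgttggagag
Mcm3, exon 10, coding, chr1:20810175-20810203, minus strand: cattgggctgcaGGACTcactgctgtcta
Mcm2, exon 14, coding, chr6:88884765-88884793, minus strand: catgcacctgcgGGACTacgtgatggaag

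At MII the members with the densest words, Cdc6 and Mcm3, had the highest IP/input after Gmnn, at 0.12 ± 0.13 and -0.48 ± 0.17, and those with the sparsest, Mcm6 (0.344 per kb) and Mcm2 (0.593 per kb), had the lowest, at -1.46 and -2.71. At L2C Cdc6 and Mcm3 lay at -1.11 and -1.43, among members with fewer words. Gmnn, with a density below the median of all mRNAs, lay above all other members at both stages. Cdt1, with 1.83 words per kb, lay at -1.06 at MII. For the shorter word GGAC the order differed, since Mcm2 held 5.93 per kb, Cdc6 5.86 and Mcm3 7.26. The mRNA of Ythdc1 held 0 GGACT words, and its log2 IP/input at MII was 0.78. Words were counted in 1 spliced mRNA, whereas IP/input was counted over whole spans with introns. The 10 points share libraries, and a word is a possible site and no measured m6A.

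**Figure D3:**
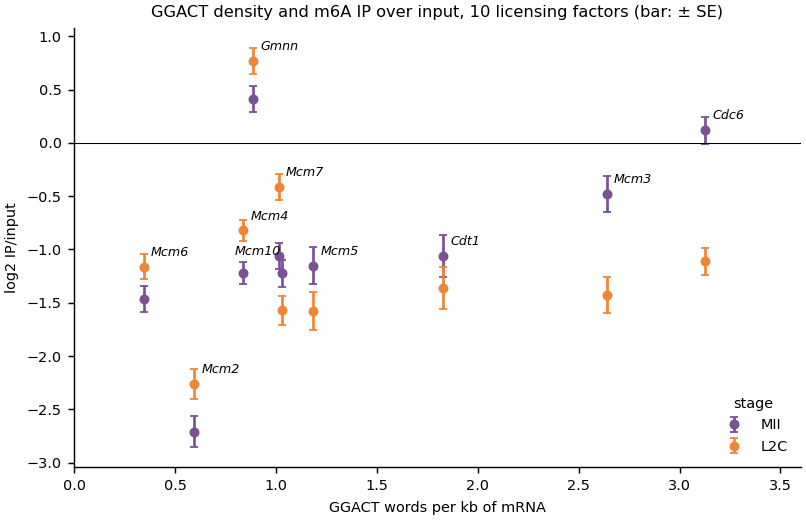
Log2 IP/input (± SE) of the 10 members at MII and L2C against GGACT words per kb of mRNA. Cdc6 and Mcm3 lie at the right with 3.13 and 2.64 words per kb and moved down from MII to L2C, while Gmnn lies above 0 with 0.887.

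Between Ythdc1 KD and NC embryos at L2C, RNA of the helicase subunits differed in both directions, and the share of members called, 7 of 10, was near the 66.8% of all genes called over the whole annotation. RNA of Mcm6, Mcm2, Gmnn and Cdt1 was higher in KD than in NC, RNA of Mcm4, Mcm5 and Mcm7 was lower, and Cdc6, Mcm3 and Mcm10 did not pass the test. These values are counts of reads on exons. On the scale of the merged table described below, Ythdc1 itself stood at 523, 541 and 519 CPM in KD against 1080, 1098 and 994 in NC. This was a fall to 0.499 of the control (log2 difference -1.0 ± 0.06, edgeR, adjusted p = 1.34e-10), so a good part of its RNA remained. Over the whole annotation, the 9 markers of 2-cell embryos summed to 329 to 370 CPM in KD and 1099 to 1142 in NC. The 10 oocyte markers summed to 489 to 509 and 776 to 792, and the 8 cumulus markers to 7.92 to 9.99 and 8.50 to 11.3. Their part in the members' changes was not tested. The file of KD replicate 3 ends within its gene row 25740 and the authors' merged table holds the genes before it, so Mcm4, Mcm5, Cdc6, Cdt1 and Gmnn rest on 2 KD libraries against 3 NC libraries over the whole annotation.

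**Figure D4:**
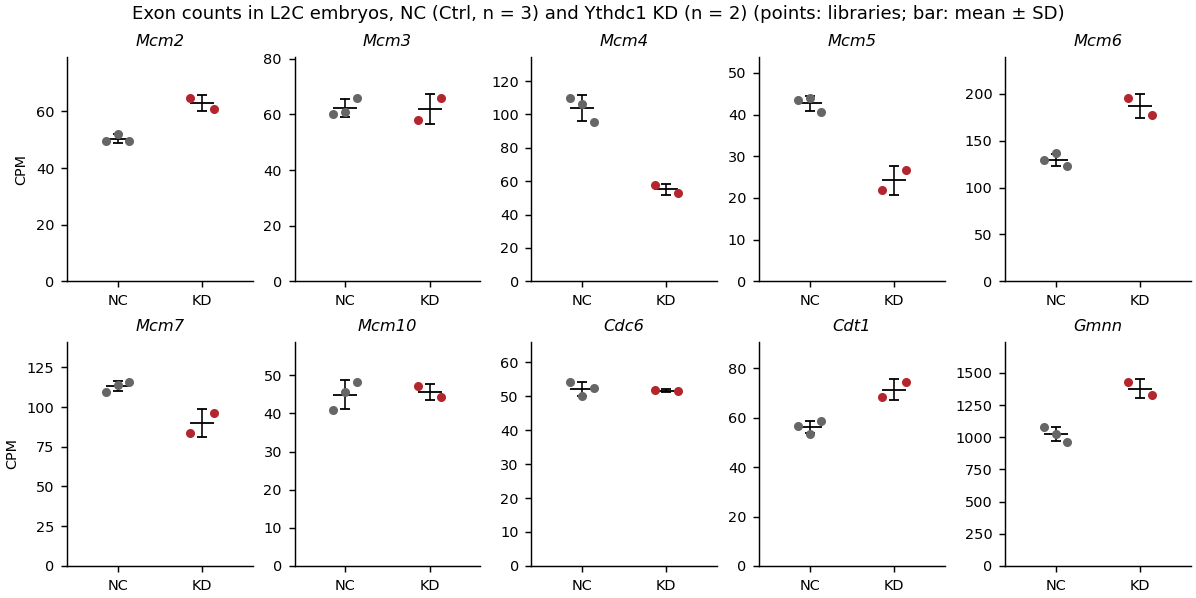
Exon counts (CPM, linear axis from 0) of each member in 3 NC and 2 KD libraries over the whole annotation, with mean ± SD. The KD points of Mcm4 and Mcm5 lie well below the NC points, those of Mcm6 and Gmnn above, and those of Mcm3, Mcm10 and Cdc6 overlap them.

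In the merged table with all 6 libraries, Mcm6 stood at 507, 462 and 492 CPM in KD and at 336, 355 and 322 in NC, without overlap. It rose 1.44-fold (0.53 ± 0.07, edgeR, adjusted p = 1.52e-06). Mcm2 stood at 168, 159 and 187 against 128, 136 and 130 CPM, also without overlap, and rose by 0.38 ± 0.09 (adjusted p = 0.00061). Mcm7 stood at 217, 250 and 245 against 285, 296 and 302 CPM and fell by 0.31 ± 0.08 (adjusted p = 0.00112). Mcm3 and Mcm10 overlapped between groups, at -0.07 ± 0.09 (adjusted p = 0.507) and 0.08 ± 0.09 (adjusted p = 0.481). Among the 5 members held there, 2 rose and 1 fell, where 70.9% of 7433 genes were called, 33.5% higher and 37.4% lower.

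Over the whole annotation, Mcm4 stood at 57.5 and 52.7 CPM in KD against 110.2, 106 and 95.3 in NC. Mcm5 stood at 21.8 and 26.8 against 43.4, 44.1 and 40.6 CPM. Both were clear of the controls, and they fell by 0.92 ± 0.10 (edgeR, adjusted p = 1.31e-06) and 0.82 ± 0.12 (adjusted p = 2.12e-05), the largest changes among the members. Mcm4 and Mcm5 were thus at 0.53 and 0.567 of their control level while Mcm6, their partner in the ring, was at 1.44.

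Gmnn stood at 1429 and 1327 CPM in KD against 1077, 1028 and 965 in NC and rose by 0.43 ± 0.07 (edgeR, adjusted p = 6.2e-05). Cdt1 stood at 68.4 and 74.5 against 56.5, 53.6 and 58.6 CPM and rose by 0.35 ± 0.10 (adjusted p = 0.00514), and its exons are not shared with another gene. Neither pair of groups overlapped. The counts of Gmnn over those of Cdt1 were 20.9 and 17.8 in KD and 19.1, 19.2 and 16.5 in NC, which overlapped (log2 difference 0.08, two-sided exact permutation p = 0.6, where 0.1 is the smallest possible). The SLIM-seq inputs of the same stage gave far lower ratios, 1.45, 1.14 and 1.32. Gmnn averaged 1023 CPM in NC and 274 in the L2C inputs, and Cdt1 56.2 and 210. The 2 experiments counted reads differently, over exons and over whole spans, and the cause of this disagreement was not tested. Cdc6 stood at 51.9 and 51.4 against 54.1, 50.1 and 52.4 CPM, a difference of -0.02 ± 0.10 (adjusted p = 0.895).

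Of all 10 members 4 rose and 3 fell, where 66.8% of 17074 genes were called, 30.5% higher and 36.4% lower, so the share of members was close to that background. Their median log2 difference was 0.01, beside -0.09 for all genes. Under the study's own rule, which also asks for a log2 difference beyond 1, 0 members were called, against 38.9% of genes here and 37.2% in the merged table. Leaving out 1 KD library leaves a single one, assumed to vary like the controls, so calls lost there say little. They were those of Mcm2 (0.28 in place of 0.32, adjusted p = 0.0721) and Mcm7 (-0.23 in place of -0.33, adjusted p = 0.122) without KD replicate 1, and of Cdt1 (0.30 in place of 0.35, adjusted p = 0.0517) without KD replicate 2.

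Exon counts also allowed levels to be ordered per length, and the order depended on which length was used. Over all annotated exon bases of a gene, Gmnn in NC embryos had 698 ± 38.2 CPM per kb (SD, n = 3), Mcm4 28.9 ± 2.14, Mcm6 27.8 ± 1.42, Mcm7 25.5 ± 0.70, Cdt1 17.9 ± 0.80, Mcm3 16.6 ± 0.86, Mcm5 10.7 ± 0.47, Cdc6 9.98 ± 0.39, Mcm2 7.25 ± 0.21 and Mcm10 5.84 ± 0.49. Over the bases of 1 mRNA per gene, a length chosen after seeing the data, Gmnn had 908 ± 49.7 CPM per kb, followed by Mcm6 at 44.6 ± 2.29, Mcm7 at 38.2 ± 1.05, Mcm4 at 28.9 ± 2.14, Cdt1 at 25.7 ± 1.15, Mcm3 at 20.6 ± 1.06, Cdc6 at 20.4 ± 0.80, Mcm2 at 15.0 ± 0.44, Mcm5 at 12.6 ± 0.55 and Mcm10 at 9.23 ± 0.77. In NC embryos Gmnn was highest and Mcm10 lowest by both lengths, while the order of most other members changed with the length. In KD embryos (n = 2) Mcm5, at 7.18 CPM per kb of mRNA, stood below Mcm10, at 9.38. Libraries of Mcm4 and Cdt1 and of Mcm3 and Cdc6 overlapped per mRNA, and those of Mcm4 and Mcm6, of Cdt1 and Mcm3 and of Mcm5 and Cdc6 overlapped per exon base.

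The counts of 5 further replication lists stand beside the shares over all genes given above, which were 47.5% higher and 37.1% lower for RNA from MII to L2C, 22.0% and 22.0% for the IP at L2C and 30.5% and 36.4% for KD. The origin recognition complex, the platform on which licensing starts, was mixed. Of its 6 genes 1 was higher and 3 were lower in L2C than in MII. Orc1, its regulated ATPase, rose by 0.63 ± 0.13 on the log2 scale (edgeR, adjusted p = 0.00046), whereas Orc5 fell from 632 ± 9.21 CPM in MII to 38.7 ± 8.00 in L2C (SD, n = 3). In the IP at L2C 4 were higher and 0 lower, among them Orc4 (0.84 ± 0.23) and Orc6 (0.78 ± 0.12), and the list's median was 0.56 where that of the licensing factors was -1.26. In KD embryos Orc4 rose by 0.74 ± 0.09 and Orc5 fell by 1.12 ± 0.11, while Orc2 fell by 0.38 ± 0.09, so 1 rose and 2 fell.

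Of 12 other genes of licensing control, 11 were tested, Mcidas being too low. In L2C 6 stood above and 4 below their MII level by the test. Skp2, the ubiquitin ligase subunit that targets Cdt1 in S phase, rose from 34.1 ± 1.69 to 135 ± 6.77 CPM, and Kat7, a histone acetylase that aids loading, fell from 491 ± 29.4 to 126 ± 9.81 CPM (SD, n = 3). In the IP the list was also mostly lower, with 2 higher and 7 lower at MII (median log2 IP/input -1.05, beside -1.11 for the licensing factors) and 1 higher and 7 lower at L1C (-0.61, beside -0.87). The medians of the other 4 lists lay between -0.03 and 0.40 at MII and between -0.09 and 0.31 at L1C. At L2C 2 were higher, Mcmbp (1.05 ± 0.16) and Mcm9 (0.65 ± 0.12), and 5 were lower (median -0.43), with Ddb1 at -1.11 ± 0.15 and Skp2 at -1.01 ± 0.10. In KD embryos 3 rose and 5 fell. Skp2 rose by 0.77 ± 0.09 and Dtl, which directs Cdt1 to destruction at the fork, by 0.78 ± 0.08, while Mcm9 fell by 0.75 ± 0.11. Gmnc fell further, at -7.61 to -7.46 over the fits that left out 1 library.

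Origin firing, the activation of loaded helicases, was read from 14 genes, of which 6 were called higher and 4 lower in L2C than in MII. Topbp1, a scaffold of helicase activation, rose from 2.62 ± 0.32 to 48.7 ± 5.37 CPM, and Gins4, a subunit of the active helicase, from 10.7 ± 0.47 to 90.4 ± 9.18 (SD, n = 3). Dbf4, the activator of the Cdc7 kinase that phosphorylates the hexamer, was higher in the IP at L2C (1.08 ± 0.14), as was Gins1 (1.01 ± 0.14), and 4 of the 14 were higher and 6 lower. In KD embryos 5 rose and 2 fell. Gins3 rose from 35.8 ± 0.70 CPM in NC (n = 3) to 124 ± 3.42 in KD (n = 2), and Cdc7 from 6.87 ± 0.93 to 26.9 ± 1.86, whereas Dbf4 fell by 0.28 ± 0.07.

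The 28 replication fork genes encode polymerases, clamp loaders, single-strand binding proteins and other factors that act at or supply the fork, such as a ligase and ribonucleotide reductase. Between MII and L2C, RNA of 9 rose and of 17 fell, with a median of -0.76 beside 0.40 for all genes. The single-strand binding subunits parted as the hexamer subunits did, since Rpa2 rose from 20.7 ± 0.95 to 346 ± 44.1 CPM and Rpa1 fell from 437 ± 15.9 to 30.0 ± 1.76 CPM (SD, n = 3). In the IP at L2C 10 were higher and 12 lower, with a median of -0.08. In KD embryos 18 of the 27 tested rose and 4 fell, with a median of 0.39 beside -0.09 for all genes tested. Rrm1, a subunit of ribonucleotide reductase, rose by 1.82 ± 0.14, and Rfc2, a clamp loader subunit, and Lig1, the replicative ligase, fell by 1.29 ± 0.15 and 1.04 ± 0.16. Pold1 rose more, by 5.98 to 9.00 over the fits that left out 1 library, so its size depended on the library left out.

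Of 14 S-phase cyclin, kinase and E2F genes 13 were tested, Ccna1 being too low, and between MII and L2C 5 of them rose and 5 fell. Ccne1, the cyclin of S-phase entry, rose from 20.4 ± 0.37 to 962 ± 120.1 CPM, and its kinase Cdk2 from 12.5 ± 1.39 to 301 ± 35.1, whereas the activator E2f2 fell from 238 ± 9.33 to 21.6 ± 3.86 CPM (SD, n = 3). In the IP at L2C 4 were higher and 4 lower, with E2f5 at 1.11 ± 0.17 and E2f2 at -1.14 ± 0.14. In KD embryos 3 rose and 6 fell. Ccna2 rose by 0.29 ± 0.08, and E2f4 and E2f5 fell by 0.87 ± 0.12 and 0.72 ± 0.10. E2f6 rose more, by 3.12 to 3.66 over the fits that left out 1 library.

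**Figure D5:**
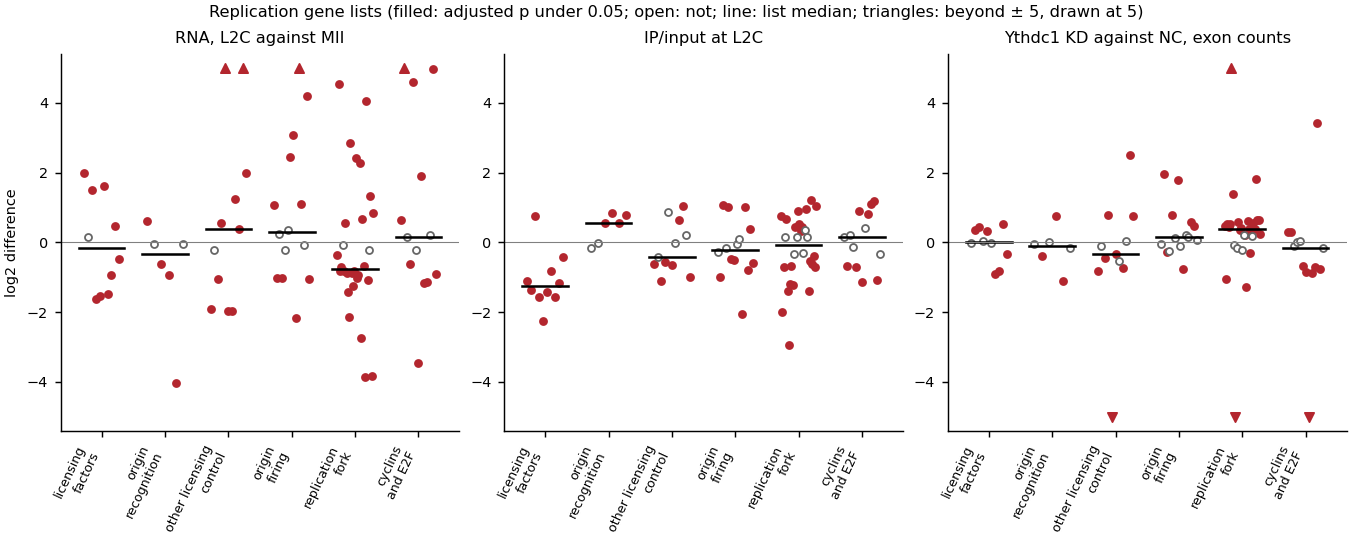
Log2 differences of the licensing factors and 5 further replication lists for RNA from MII to L2C, for IP/input at L2C and for Ythdc1 KD against NC, with 1 point per gene, filled where the adjusted p was under 0.05, and a line at the list median. In the middle panel 9 of the 10 licensing factors lie below 0 and their median line is the lowest at -1.26, and in the right panel the fork list has the highest median line at 0.39. Triangles stand for values beyond 5 in size, drawn at 5.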

How the data were processed

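SLIM-seq libraries (18) and L2C knockdown libraries (6) were grouped by their titles. For SLIM-seq, the authors deposited estimated counts per gene from kallisto, whose targets were whole gene spans with introns, so intronic reads enter these values. For the knockdown, the authors used Trimmomatic for trimming and HISAT2 for alignment to GRCm38, and deposited counts on exons from featureCounts 2.0.1 with Ensembl annotation 99, with 8696476 to 14500548 counts per library over the whole annotation and 3276715 to 5463868 in the merged table. KD replicate 3 was cut short and was not used over the whole annotation.

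Estimated counts were rounded. Low genes were removed with filterByExpr, libraries were scaled by TMM, and edgeR 4.0.16 (R 4.3.3) quasi-likelihood tests were fitted across all genes tested, adjusted by Benjamini-Hochberg, with calls at an adjusted p under 0.05. All inputs, all SLIM-seq libraries and all knockdown libraries shared one fit each. CPM are counts per 1000000 after TMM, and SE is the log2 difference over the square root of F. DESeq2 1.42.0, library size scaling, no filter, unadjusted p, the study's rule (a log2 difference beyond 1 for the knockdown), only the stages compared, a replicate block and each library left out were the alternatives. In simulated data for the L2C IP/input comparison (21950 genes), 42 of 99 changes of 1 on the log2 scale and 74 of 88 of 2 were found. For the change of IP/input from MII to L2C they were 22 of 93 and 67 of 100, so a member not called there may still have changed. For RNA from MII to L2C they were 48 of 98 and 86 of 97. In the knockdown they were 81 of 105 and 87 of 89 (6 libraries) and 52 of 84 and 90 of 100 (whole annotation). The paper states that inputs and IP libraries were made from shared batches of RNA, but not that replicate numbers mark those batches. Replicate numbers were not taken to pair libraries, since no pair of groups had all its same-number correlations above 0.1.

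Named genes were all members, Ythdc1, up to 2 genes per list, comparison and direction with the smallest p among those called, and the nearest gene to each member. The text gives a selection of them. The members and lists were chosen with earlier results of these data known. Symbols matched for 55144 of 55471 gene IDs. Sequences came from the reference genome (GRCm38), its GENCODE annotation and RefSeq promoters. Python 3.11.15, pandas 2.3.3, numpy 2.4.6, scipy 1.17.1 and matplotlib 3.10.9 were used for the rest.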

Additional observations from a re-analysis of the deposited data

Results flagged for a closer look

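In 4 comparisons of a member the log2 IP/input differed between stages by a test of the interaction (edgeR, adjusted over 21950 genes). Cdc6 was lower in L2C than in MII by -1.23 ± 0.18 (adjusted p = 8.01e-05) and lower in L2C than in L1C by -0.70 ± 0.18 (adjusted p = 0.0192). Mcm3 was lower in L2C than in MII by -0.95 ± 0.24 (adjusted p = 0.00803), and Mcm7 was higher by 0.65 ± 0.17 (adjusted p = 0.0109). In each, all 3 IP libraries of the later stage, over the mean of their inputs, lay on the same side of those of the earlier stage. This measure leaves out the spread of the inputs, and the comparisons share libraries. The call of Cdc6 after L1C was lost with the replicate number as a block (adjusted p = 0.059), without L1C IP replicate 1 (adjusted p = 0.0559) and without L2C input replicate 2 (adjusted p = 0.0537). The call of Mcm7 was lost without a filter on low counts (adjusted p = 0.0736) and with only the stages compared (adjusted p = 0.0563).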

How the results depend on the processing

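Counts of members called stayed within 1.5 times their value under every alternative run, with the exceptions below. For the change of IP/input from L1C to L2C the count was 1, and it was 2 under library size scaling, 3 without a filter, 3 by DESeq2, 2 with only the stages compared and 4 at an unadjusted p. At an unadjusted p it was 2 from MII to L1C (0 adjusted) and 5 from MII to L2C (3 adjusted). Under the study's rule it was 0 in both knockdown fits (3 and 7). With the replicate number as a block, which assumes a pairing the correlations do not show, the L1C to L2C count was 0 (Cdc6 at -0.69, adjusted p = 0.059), Mcm3 at MII lost its IP/input call (adjusted p = 0.0618), and it changed no other member's call. Over the fits that left out 1 library each, the counts were 6 to 8, 9 to 9 and 9 to 9 for RNA, 8 to 9, 9 to 10 and 9 to 10 for IP/input, 0 to 0, 0 to 2 and 3 to 5 for its change, 3 to 3 for the 6 knockdown libraries and 5 to 7 for the whole annotation, where a lone KD library was assumed to vary like the controls. The log2 ratio of Gmnn to Cdt1 differed by 0.29 to 0.80 (L1C against MII), 0.55 to 1.06 (L2C against L1C), 1.26 to 1.45 (L2C against MII) and -0.0299 to 0.20 (KD against NC), and it turned to -0.0299 without KD replicate 1. Orc1, lower in the IP at L1C, was at 0.0049 under library size scaling (adjusted p = 0.991). Apart from scaling and the libraries named, the cause of these differences was not tested. Of the members' values with 1 library left out, 1400 kept their side of the threshold, 24 lost the call and 6 gained it. Some values that were not called changed sign, and no called value of a member did. By the same measure DESeq2 kept 100, gained 4 calls and lost 1, library size scaling kept 97, gained 3 and lost 5, and no filter kept 102, gained 2 and lost 1. The calls gained for the change of IP/input were those of Mcm3 after L1C under all 3 and with only the stages compared, of Cdt1 after L1C by DESeq2 and with no filter, and of Mcm4 from MII to L2C by DESeq2 and library size scaling. The number of libraries limits the knockdown values of 5 members, with 2 KD libraries each, and shared spans or exons limit those of Cdt1 in SLIM-seq and of Mcm7.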
